A study of Mus musculus with 12 samples.

Results

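The genes of the translation initiation and elongation factors were taken from the count table by name: protein-coding genes whose symbol starts with Eif and a digit, or with Eef1 or Eef2, without the eIF2alpha kinases (Eif2ak). The rule gave 67 of 55487 genes, in RNA from breast tumours of 12 C57BL/6J mice that all carried the MMTV-PyMT transgene, which drives polyoma middle T antigen from a promoter active mainly in mammary epithelium. Of these mice, 6 carried Bad3SA, a form of the cell death gene Bad with alanine in place of regulatory serines, and had end-point ages of 22.9 to 31.1 weeks. The other 6 were Bad wild-type (Bad+/+, called Bad_WT here), with end-point ages of 21.3 to 27.1 weeks. Each library came from a separate mouse and from whole tumour tissue, so fewer cells of a type and less RNA per cell cannot be told apart. Counts per gene do not read the substituted codons, so the genotypes rest on the labels.

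Initiation factors bring the initiator methionyl-tRNA, the small ribosomal subunit and the mRNA together at the start codon. eIF2 carries the tRNA, eIF2B recharges eIF2 with GTP, eIF3 is the scaffold on the small subunit, and eIF4E, eIF4G and eIF4A bind the cap and unwind the mRNA leader. The 4E-binding proteins (4E-BPs) hold eIF4E back until mTORC1 phosphorylates them. During elongation eEF1A delivers aminoacyl-tRNA, the eEF1B subunits recharge it, eEF2 moves the ribosome by a codon and eIF5A helps at peptide bonds that form slowly. In tumours these factors are mainly known for control by phosphorylation, which transcript counts do not measure.

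Promoter windows were available for 50 of the 67 genes, taken from RefSeq on GRCm38.p6 and running from 250 bases before to 50 after each annotated start. The letters CGGAAG, the core that ETS factors bind, stood on either strand in a window of 54.0% of these 50 genes, against 18.8% of the 27025 genes of the RefSeq table. A gene with several starts has several windows: of the 64 windows of factor genes 48.4% held these letters, against 16.9% of all 32851 windows. Among genes that entered the test below, the shares were 56.2% of 48 factor genes and 30.8% of 12727 genes. The E-box CACGTG, the element that Myc and its relatives bind, was found for 28.0% of the factor genes and 8.09% of all genes, and for 29.2% of tested factor genes and 10.8% of all tested genes. TATAAA was found for 10% of factor genes and 15.7% of all genes, and for 8.33% of tested factor genes and 9.88% of all tested genes. TGACGTCA, which CREB binds, was found for 2.0% of factor genes and 2.03% of all genes. A match is a description of letters and not of binding.

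The 200 bases before the annotated start are shown for 5 factors whose values recur below: Eef2 and Eif4a1 as abundant members, and Eif3g, Eif4ebp2 and Eif5a2 as members at the edges of the comparison. Capitals mark CACGTG and CGGAAG, the last also as its reverse complement CTTCCG, and each sequence runs 5′ to 3′ on the strand of its gene. Other motif letters, such as the TATAAA near the end of the Eef2 window, are in lower case.
Eef2, chr10:81176431-81176630, plus strand: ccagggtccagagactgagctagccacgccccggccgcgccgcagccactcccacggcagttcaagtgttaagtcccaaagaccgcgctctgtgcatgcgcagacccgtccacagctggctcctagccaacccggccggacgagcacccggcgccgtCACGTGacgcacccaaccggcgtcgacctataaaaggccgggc
Eif4a1, chr11:69672424-69672623, minus strand: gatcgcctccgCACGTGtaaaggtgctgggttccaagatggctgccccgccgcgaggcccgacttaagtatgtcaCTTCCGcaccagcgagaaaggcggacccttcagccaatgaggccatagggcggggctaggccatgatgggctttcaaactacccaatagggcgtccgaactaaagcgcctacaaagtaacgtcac
Eif3g, chr9:20898591-20898790, minus strand: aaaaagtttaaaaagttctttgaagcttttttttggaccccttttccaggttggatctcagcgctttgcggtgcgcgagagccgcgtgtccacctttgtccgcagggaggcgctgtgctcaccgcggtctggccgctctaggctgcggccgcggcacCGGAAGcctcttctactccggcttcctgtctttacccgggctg
Eif4ebp2, chr10:61452670-61452869, minus strand: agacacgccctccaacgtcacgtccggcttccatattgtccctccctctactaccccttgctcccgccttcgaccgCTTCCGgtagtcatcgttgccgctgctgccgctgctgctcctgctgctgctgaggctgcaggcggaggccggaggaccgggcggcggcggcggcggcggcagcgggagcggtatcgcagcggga
Eif5a2, chr3:28781077-28781276, plus strand: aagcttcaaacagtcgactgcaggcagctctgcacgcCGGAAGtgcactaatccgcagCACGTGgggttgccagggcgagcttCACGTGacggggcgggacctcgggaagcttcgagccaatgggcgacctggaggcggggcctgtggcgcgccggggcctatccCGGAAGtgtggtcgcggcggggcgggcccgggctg
The Eef2 window held CACGTG 43 bases before the start, and the Eif3g window held CGGAAG at the same distance. Eif5a2 held CACGTG 142 and 117 bases before the start and CGGAAG 163 and 35 bases before it, the most matches of these 5 windows.

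Libraries held 58096172 to 83296370 counts, so that 3 counts corresponded to 0.0346 to 0.0544 CPM (counts scaled to a common library size with TMM factors, so that tumours can be compared). Luminal epithelial markers were all present, with a summed level of 5298 to 7195 CPM in Bad3SA tumours and 5617 to 6834 CPM in Bad_WT tumours. Skeletal muscle markers stood apart in 1 library, Bad_WT 4, with a sum of 1137 CPM against at most 160.4 CPM in the other tumours. The adipocyte marker sum was 156.8 CPM in Bad3SA 5, the tumour that most often holds the extreme value below, and at most 43.4 CPM in the other tumours. Red cell markers summed to 198 to 219 CPM in Bad3SA 1 to 4 and 64.0 to 87.9 CPM in Bad3SA 5 and 6, against 24.9 to 110 CPM in Bad_WT tumours. The part of fat or blood RNA in the factor values was not tested. Spearman correlations between tumours across genes were 0.937 to 0.989, and no pair within a group agreed within counting noise.

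Transcript levels of the translation factors differed little between Bad3SA and Bad_WT tumours. None of the 63 factor genes with enough counts to test passed an adjusted p of 0.05 in edgeR's quasi-likelihood F test with Benjamini-Hochberg adjustment over all 18019 genes tested, in a comparison in which 1.38% of all genes tested were called. The count was also 0 with DESeq2 and with limma voom. At an unadjusted p under 0.05 there were 5 factor genes, 7.94% of those tested against 16.2% of all genes tested, and these were 0 once the tumour Bad3SA 5 was left out. The log2 fold change of Bad3SA over Bad_WT was positive for 38 factor genes and negative for 25, with a median of 0.08 against 0.003 over all genes tested. The ranges of the 6 Bad3SA and the 6 Bad_WT tumours overlapped for each of the 63 genes, and they did not overlap for 2.23% of all genes tested. With shares of 1.38% called and 2.23% not overlapping, a count of 0 among 63 genes does not set the factor genes apart.

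The intervals show how large a difference these 12 tumours leave room for. The median standard error (SE) was 0.136 on the log2 scale for the 63 factor genes, against 0.218 over all genes tested. For 58 of them, or 92.1%, the 95% interval of the fold change lay within a doubling in either direction, which was so for 65.5% of all genes tested. The exceptions were Eef1a2, Eif4ebp3, Eif5a2, Eef1akmt3 and Eef1akmt4, each among the less abundant factor genes. For 48 factor genes the interval lay within 1.5-fold in either direction.

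**Figure D1:**
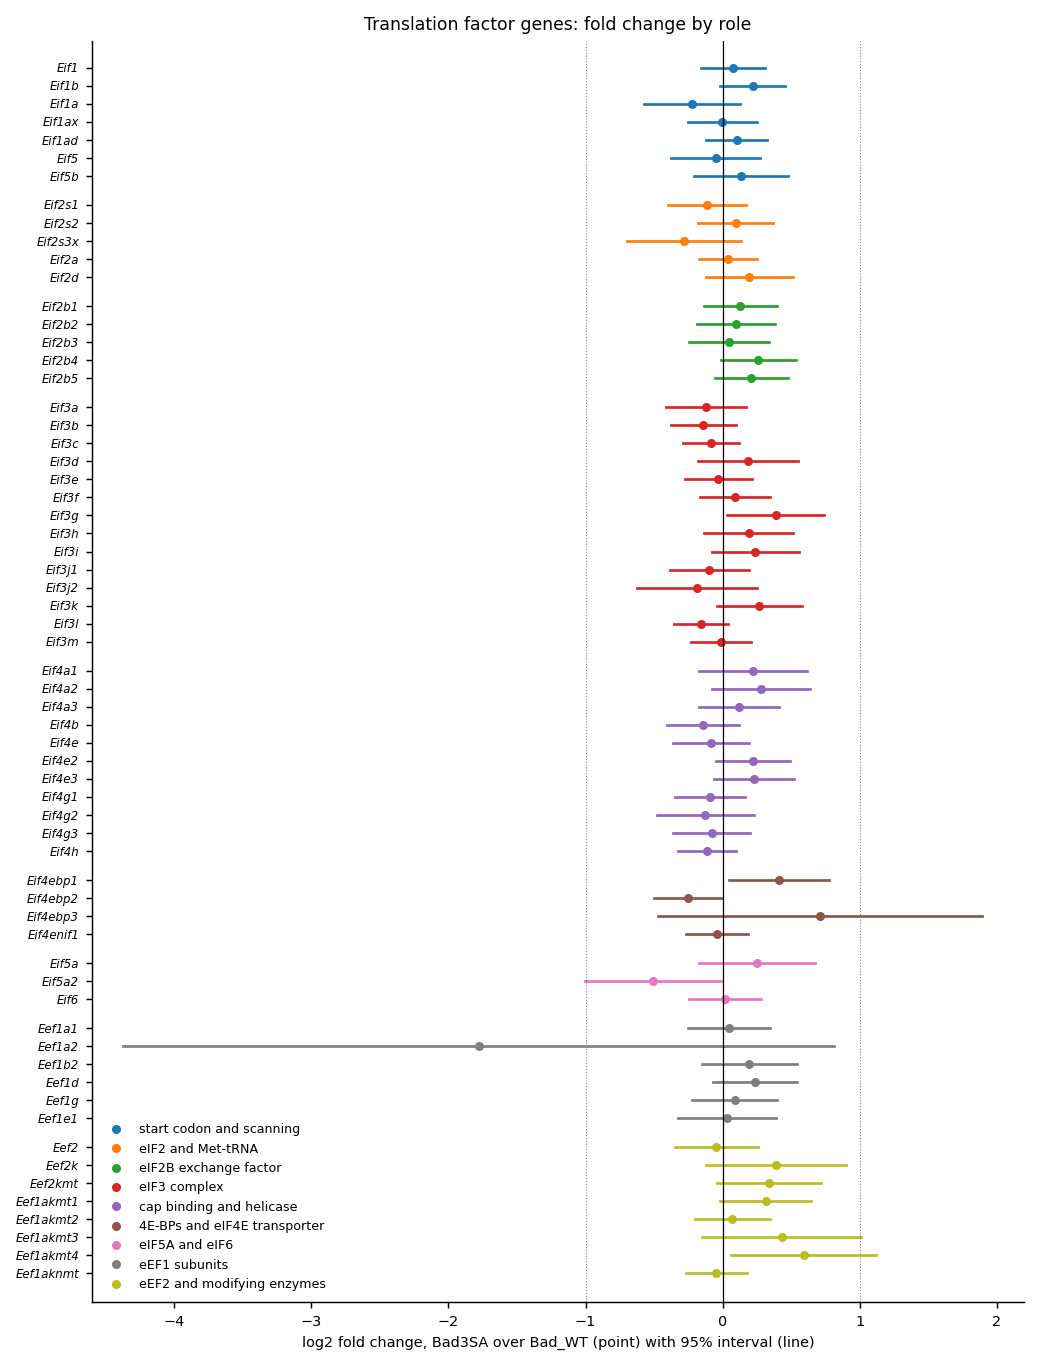
Log2 fold change of Bad3SA over Bad_WT tumours (horizontal axis) for the 63 tested translation factor genes, grouped and coloured by role; points are estimates from edgeR and lines their 95% intervals. Most intervals are short and span 0, the Eef1a2 interval is the widest, and dotted lines mark a halving and a doubling.

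The factor genes together took 2.53% to 3.31% of all counts in Bad3SA tumours and 2.59% to 3.02% in Bad_WT tumours. Eef1a1, the main eEF1A of dividing cells, supplied 32.4% of these counts, and with Eef2 it supplied 47.5%. Per kilobase of exon, which allows genes to be compared, Eef1a1 was at 3682 CPM per kb in Bad3SA tumours and 3567 in Bad_WT tumours. Eef2 followed at 1238 CPM per kb in Bad3SA and 1278 in Bad_WT tumours, then Eif5a at 569 in Bad3SA and 478 in Bad_WT tumours. The eEF1B subunit Eef1b2 was at 385 CPM per kb in Bad3SA and 337 in Bad_WT tumours, and its partner Eef1g at 372 in Bad3SA and 350 in Bad_WT tumours. The highest initiation factors were Eif3h at 294 CPM per kb in Bad3SA and 258 in Bad_WT tumours, the helicase Eif4a1 at 271 in Bad3SA and 232 in Bad_WT tumours, and the start-codon factor Eif1 at 231 in Bad3SA and 219 in Bad_WT tumours. At the low end Eif4ebp3 was at 0.370 CPM per kb in Bad3SA tumours and 0.224 in Bad_WT tumours. Exon length is the union of all annotated exons, which lowers the per-length level of genes with long alternative ends.

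**Figure D2:**
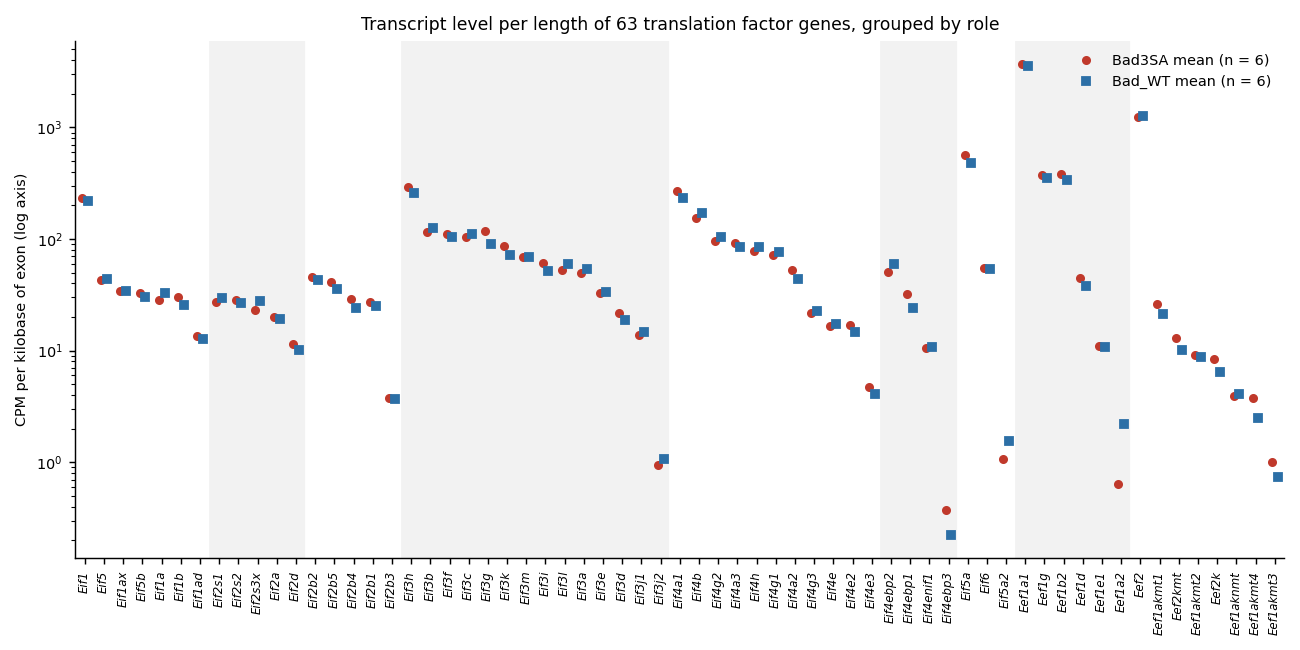
Mean level of the 63 tested translation factor genes in CPM per kilobase of exon (log axis), with genes grouped by role and ordered by level within a role; circles are the mean of 6 Bad3SA tumours and squares that of 6 Bad_WT tumours. Eef1a1 and Eef2 stand above all others, and the 2 groups lie close together except at low levels, with Eef1a2 the widest apart.

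Filtering removed 4 of the 67 genes, all near the limit of detection. Eif2s3y, the Y-linked copy of the eIF2 gamma subunit, had 0 counts in every library, which limits it to less than the 0.0346 to 0.0544 CPM that 3 counts represent. Eif4e1b, an eIF4E relative known from oocytes, had 3 counts over the Bad3SA tumours and 2 over the Bad_WT tumours. Eif4a3l1 had 6 counts in Bad3SA and 4 in Bad_WT tumours, and Eif4a3l2 had 37 in Bad3SA and 34 in Bad_WT tumours. Both Eif4a3l genes are near copies of each other, 98.5% identical over 1361 bases, so reads between them could be split by the counting.

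Of the 7 start codon and scanning factors, 4 had a positive and 3 a negative fold change. Eif1, which guards the choice of the start codon, had the highest level per length in the group and averaged 484 CPM in Bad3SA tumours and 459 CPM in Bad_WT tumours. Its log2 fold change was 0.08 with a 95% interval of -0.16 to 0.31. Its paralogue Eif1b had the group's highest fold change, 0.22 (SE 0.11, adjusted p = 0.351 by edgeR), and 0.13 without Bad3SA 5. Eif1b spanned 28.4 to 42.8 CPM with a median of 32.7 CPM in Bad3SA tumours, against 24.6 to 32.3 CPM with a median of 29.2 CPM in Bad_WT tumours. Eif1a, which joins eIF1 on the small subunit, had the lowest, -0.22 (SE 0.16, adjusted p = 0.497 by edgeR), and -0.08 without Bad_WT 6.

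Among eIF2 and the factors that handle the initiator tRNA, 3 of 5 tested genes were positive and 2 negative. Eif2s1, the alpha subunit that the stress kinases phosphorylate, averaged 135 CPM in Bad3SA tumours and 146 CPM in Bad_WT tumours. Eif2s3x, the X-linked gamma subunit, had the lowest log2 fold change, -0.28 (SE 0.19, adjusted p = 0.469 by edgeR), and spanned 61.0 to 126 CPM in Bad3SA tumours against 89.5 to 145 CPM in Bad_WT tumours. Its fold change was 0.06 without Bad3SA 4, 5 and 6, 0.02 with end-point age as a covariate, and -0.17 without Bad_WT 6. Eif2d, which can deliver tRNA without eIF2, had the highest at 0.19 (SE 0.15), and 0.07 without Bad3SA 5.

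All 5 subunits of eIF2B, the exchange factor that recharges eIF2, had positive fold changes, with a median of 0.13 and none past the threshold. The range ran from 0.05 for Eif2b3 to 0.26 for Eif2b4 (SE 0.13, adjusted p = 0.331 by edgeR). Eif2b4 averaged 75.5 CPM in Bad3SA tumours and 63.1 CPM in Bad_WT tumours. It overlaps Snx17 on the other strand over 204 exon bases, and Snx17 had more counts than Eif2b4. Without Bad3SA 5 the Eif2b4 value was 0.16. In the same fit Eif2b2 and Eif2b3 turned slightly negative, at -0.02 and -0.06. Without Bad3SA 4, 5 and 6 they were at -0.02 and -0.03.

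The 14 genes of eIF3 were split, with 6 positive and 8 negative and a median log2 fold change of -0.02. Eif3g, an RNA-binding subunit on chromosome 9 (20894349 to 20898623, GRCm38), stood at the upper edge. It reached 185 to 355 CPM with a median of 214 CPM in Bad3SA tumours, against 153 to 230 CPM with a median of 173 CPM in Bad_WT tumours. All 6 Bad3SA tumours lay above the Bad_WT median, but 4 of them lay below Bad_WT 6, the highest Bad_WT tumour, and Bad3SA 5 alone was far above it. The log2 fold change was 0.39 with a 95% interval of 0.03 to 0.74, and the adjusted p was 0.275 by edgeR. Without Bad3SA 5 the fold change was 0.22, the lowest value when any 1 tumour was left out.

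Eif3h, the most abundant per length, averaged 474 CPM in Bad3SA tumours and 415 CPM in Bad_WT tumours, with a log2 fold change of 0.19 (SE 0.15) that was 0.11 without Bad3SA 5. The lowest fold change of the complex, that of Eif3j2, was -0.19 (SE 0.20), and -0.09 without Bad_WT 1. Eif3j2 shares 2379 bases at 99.4% identity with Eif3j1 and had 2087 counts against 71462 for Eif3j1, so its own level is uncertain.

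Of the 11 tested cap-binding and helicase genes, 5 were positive and 6 negative. Eif4a1, the helicase of eIF4F, spanned 861 to 1681 CPM in Bad3SA tumours with a median of 1085 CPM, and 826 to 1386 CPM in Bad_WT tumours with a median of 953 CPM. Its log2 fold change was 0.22 (SE 0.18), 0.08 without Bad3SA 5 and -0.05 without Bad3SA 4, 5 and 6. The group's highest fold change was that of the related helicase Eif4a2, 0.28 (SE 0.17, adjusted p = 0.416 by edgeR), whose exons hold several small nucleolar RNA genes. The lowest was that of Eif4b, a helicase cofactor, at -0.14 (SE 0.12).

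Eif4e, the cap-binding protein itself, averaged 99.0 ± 12.1 CPM in Bad3SA tumours and 105 ± 20.1 CPM in Bad_WT tumours (SD, n = 6 each). The fitted log2 difference was -0.08 with a 95% interval of -0.36 to 0.20. Eif4e2, a cap-binding relative known as a repressor of initiation in other settings, had the smallest p of the group. It averaged 128 ± 19.0 CPM in Bad3SA tumours and 110 ± 17.6 CPM in Bad_WT tumours, with a log2 fold change of 0.22 (SE 0.12, adjusted p = 0.388 by edgeR), and 0.14 without Bad3SA 5. Eif4g1, the scaffold of eIF4F, was at 527 CPM in Bad3SA and 562 CPM in Bad_WT tumours, a log2 fold change of -0.09 (SE 0.12).

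The 4E-BP genes held the smallest adjusted p of any factor gene. Eif4ebp1 (chromosome 8, 27260329 to 27276674, GRCm38) spanned 49.8 to 101 CPM with a median of 64.2 CPM in Bad3SA tumours, against 44.9 to 69.1 CPM with a median of 50.7 CPM in Bad_WT tumours. Of the Bad3SA tumours, 5 lay above the Bad_WT median, with Bad3SA 1 and Bad3SA 5 above every Bad_WT tumour. For Eif4ebp1 the log2 fold change was 0.41 with a 95% interval of 0.04 to 0.77, and the adjusted p was 0.263 by edgeR. Leaving out 1 tumour gave 0.25 to 0.50, the lowest without Bad3SA 1.

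Eif4ebp2 (chromosome 10, 61428491 to 61452661, GRCm38) pointed the other way. It spanned 219 to 334 CPM with a median of 301 CPM in Bad3SA tumours, against 306 to 388 CPM with a median of 359 CPM in Bad_WT tumours. No Bad3SA tumour lay above the Bad_WT median, and the ranges overlapped through Bad_WT 3 and Bad_WT 5. Its log2 fold change was -0.25 with a 95% interval of -0.50 to -0.01, and the adjusted p was 0.298 by edgeR. Without Bad3SA 4, 5 and 6 it was -0.09 (SE 0.11). Eif4ebp3 was close to the limit of detection at 0.275 CPM in Bad3SA tumours and 0.167 CPM in Bad_WT tumours. Its log2 fold change, the highest of any factor gene, was 0.71 (SE 0.55, adjusted p = 0.521 by edgeR). Eif4ebp3 shares 501 exon bases with AC115631.1 on its own strand and 504 bases at 100% identity with Maskbp3, so its own level is uncertain. Whether AC115631.1 and Maskbp3 are separate genes or names of the same gene was not checked. Eif4enif1, which carries eIF4E into the nucleus, had a log2 fold change of -0.04 (SE 0.11).

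**Figure D3:**
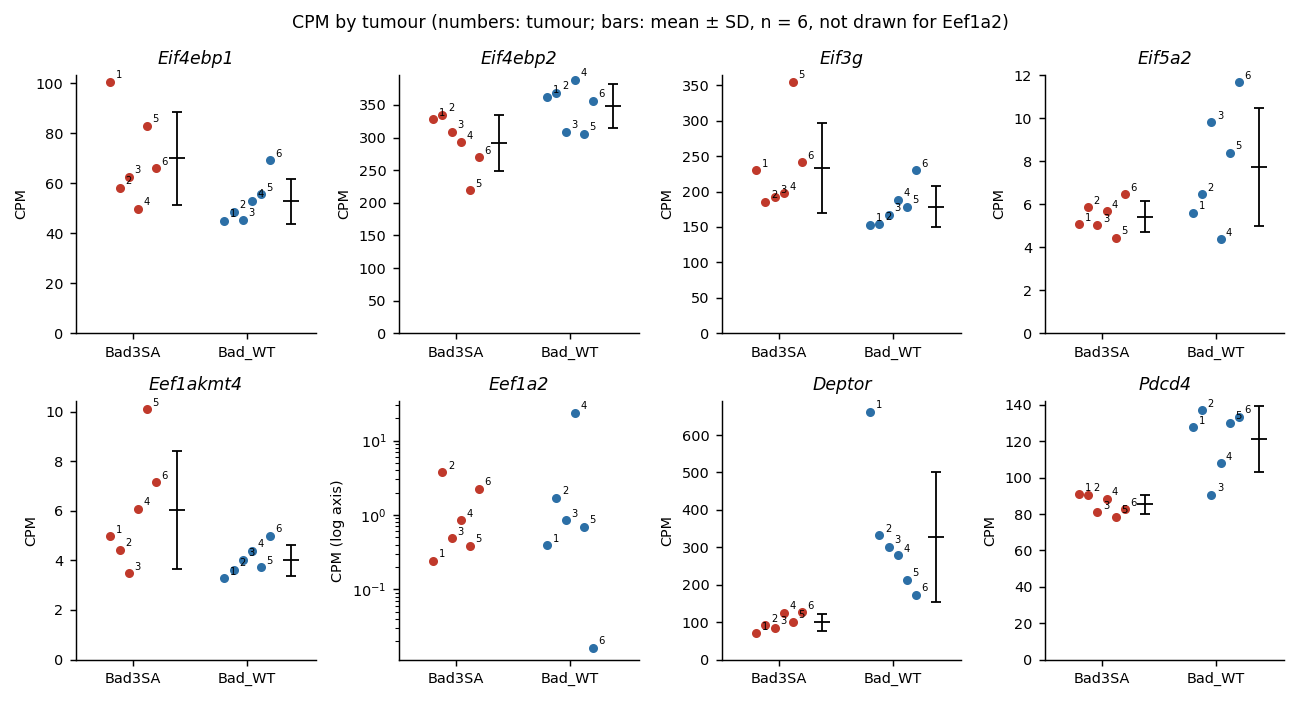
CPM of 6 translation factor genes and of Deptor and Pdcd4 in each tumour, with numbered points, Bad3SA left of Bad_WT in each panel, and bars for mean ± SD over 6 tumours; the Eef1a2 panel has a log axis and no bars. The groups share a range in each of the 6 factor genes, Bad_WT 4 stands far above the rest in Eef1a2, and the groups are apart in Deptor.

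Eif5a, the hypusine-carrying elongation factor, spanned 979 to 2177 CPM in Bad3SA tumours and 937 to 1466 CPM in Bad_WT tumours, a log2 fold change of 0.25 (SE 0.20) that was 0.06 without Bad3SA 5 and -0.07 without Bad3SA 4, 5 and 6. Its rarer paralogue Eif5a2 (chromosome 3, 28781276 to 28798846, GRCm38) spanned 4.45 to 6.45 CPM with a median of 5.37 CPM in Bad3SA tumours. In Bad_WT tumours it spanned 4.38 to 11.7 CPM with a median of 7.43 CPM, and only the tumours 3, 5 and 6 of that group lay clearly above the Bad3SA range. The log2 fold change was -0.51 with a 95% interval of -1.01 to -0.01 (adjusted p = 0.298 by edgeR). Eif6, which keeps ribosomal subunits apart, stood at 0.02 (SE 0.12).

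The eEF1 subunits and Eef1e1, grouped by symbol, were positive in 5 of 6 genes, none past the threshold. Eef1e1, which is not an eEF1 subunit despite its symbol, was at 0.03 (SE 0.17). Eef1a1 spanned 7064 to 12641 CPM with a median of 8992 CPM in Bad3SA tumours, and 7882 to 9854 CPM with a median of 8990 CPM in Bad_WT tumours. The medians were almost the same, and the Bad3SA tumours were more spread. Its log2 fold change was 0.05 with a 95% interval of -0.26 to 0.35. Eef1d, the delta subunit of the exchange complex, had the highest of the group at 0.23 (SE 0.14, adjusted p = 0.418 by edgeR), and 0.09 without Bad3SA 5.

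Eef1a2, the eEF1A of muscle and nerve (chromosome 2, 181147653 to 181157014, GRCm38), had the widest spread of any factor gene. It spanned 0.244 to 3.73 CPM with a median of 0.665 CPM in Bad3SA tumours, and 0.0163 to 23.8 CPM with a median of 0.769 CPM in Bad_WT tumours. The value of 23.8 CPM came from Bad_WT 4, and the next highest values were the 3.73 CPM of Bad3SA 2 and the 2.27 CPM of Bad3SA 6. Those 3 tumours also had the highest sums of the 8 skeletal muscle markers, 1137, 160.4 and 100.7 CPM in the same order, against 2.56 to 25.7 CPM in the other tumours. No muscle marker was at 0 in all tumours, but Tnnc2 had only 5 counts in total and was nearly absent. Tnnc2 was at 0.0149 CPM in Bad_WT 4, at 0 in Bad3SA 2 and Bad3SA 6, and highest in Bad3SA 4 at 0.031 CPM. Each of the other muscle markers was highest in Bad_WT 4. The part of muscle RNA in the Eef1a2 values was not tested. The log2 fold change was -1.78 (SE 1.2, adjusted p = 0.468 by edgeR) and turned to 0.88 without Bad_WT 4.

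Eef2 spanned 2735 to 5280 CPM with a median of 4162 CPM in Bad3SA tumours, against 3877 to 4513 CPM with a median of 4324 CPM in Bad_WT tumours, and its log2 fold change was -0.05 with a 95% interval of -0.35 to 0.26. Bad3SA 1 was the highest of all 12 tumours and Bad3SA 5 the lowest. Eef2k, the kinase that switches eEF2 off, spanned 52.4 to 75.7 CPM in Bad3SA tumours and 24.9 to 75.8 CPM in Bad_WT tumours. All 6 Bad3SA tumours lay above the Bad_WT median of 47.2 CPM, yet 3 Bad_WT tumours were at 56.5 CPM or more, and the log2 fold change was 0.39 (SE 0.24, adjusted p = 0.422 by edgeR).

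The methyltransferases of elongation factors were mostly positive as well, among low transcript levels. Eef1akmt4 spanned 3.47 to 10.1 CPM with a median of 5.52 CPM in Bad3SA tumours, against 3.27 to 4.98 CPM with a median of 3.87 CPM in Bad_WT tumours. Its log2 fold change was 0.59 with a 95% interval of 0.06 to 1.12 (adjusted p = 0.266 by edgeR), and 0.37 without Bad3SA 5. Without Bad3SA 4, 5 and 6 it was 0.11. Eef1akmt4 shares exon bases with Alg3 on the other strand and Gm49333 on its own strand. Eef1akmt1 had a log2 fold change of 0.31 (SE 0.15), Eef1akmt3 0.43 (SE 0.27) and Eef2kmt, which overlaps Alg1 over 472 exon bases, 0.34 (SE 0.18). Bad3SA 5 stood apart in Eef2kmt, at 57.5 CPM against 26.7 to 33.6 CPM in the other Bad3SA tumours. It also did so in Eef1akmt1, at 36.5 CPM against 20.2 to 25.5 CPM. Eef1akmt3 was highest in Bad3SA 4, at 3.78 CPM.

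Ratios between paralogues compare genes within a tumour, so that scaling between tumours enters only through the pseudocount of 0.1 CPM, which weighs on low values such as that of Eef1a2 in Bad_WT 6. For 9 pairs the log2 ratio was compared by an exact two-sided permutation test over all 924 ways to split the tumours, and none passed after Benjamini-Hochberg adjustment over the 9. Eif4e2 over Eif4e averaged 0.37 ± 0.22 in Bad3SA tumours and 0.07 ± 0.11 in Bad_WT tumours (SD, n = 6 each; exact permutation p = 0.0152, adjusted p = 0.0779). All 6 Bad3SA tumours were above the Bad_WT median, and Bad_WT 3 and Bad_WT 4 lay within the Bad3SA range. Eif4ebp1 over Eif4ebp2 averaged -2.08 ± 0.46 in Bad3SA tumours and -2.73 ± 0.26 in Bad_WT tumours (exact permutation p = 0.0173, adjusted p = 0.0779). Again 6 of 6 Bad3SA tumours had a ratio above the median of the Bad_WT tumours. Eif5a2 over Eif5a averaged -7.89 ± 0.54 in Bad3SA tumours and -7.25 ± 0.39 in Bad_WT tumours (exact permutation p = 0.0303, adjusted p = 0.0909), with no Bad3SA tumour above the Bad_WT median. A ratio does not cancel the relation to exon length described below, which differed between tumours. Exon lengths were 2196 bases for Eif4ebp1 and 5784 for Eif4ebp2, and 5027 for Eif5a2 and 2377 for Eif5a. For Eif4e2 and Eif4e they were 7497 and 6008 bases. The part of length in these ratios was not tested.

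The other ratios had larger p. Eif4e3 over Eif4e differed by 0.30 and Eif1a over Eif1ax by -0.19, each with an adjusted p of 0.171 in the exact permutation test. Eif1b over Eif1 differed by 0.14 (exact permutation, adjusted p = 0.198) and Eif4a2 over Eif4a1 by 0.10 (adjusted p = 0.829 by the same exact test). Eif4g3 over Eif4g1 differed by -0.0019 and Eef1a2 over Eef1a1 by -0.22, both with an adjusted exact permutation p of 0.978. The SD of the Eef1a2 ratio was 1.45 in Bad3SA and 2.56 in Bad_WT tumours, so that this pair could show only a very large difference.

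**Figure D4:**
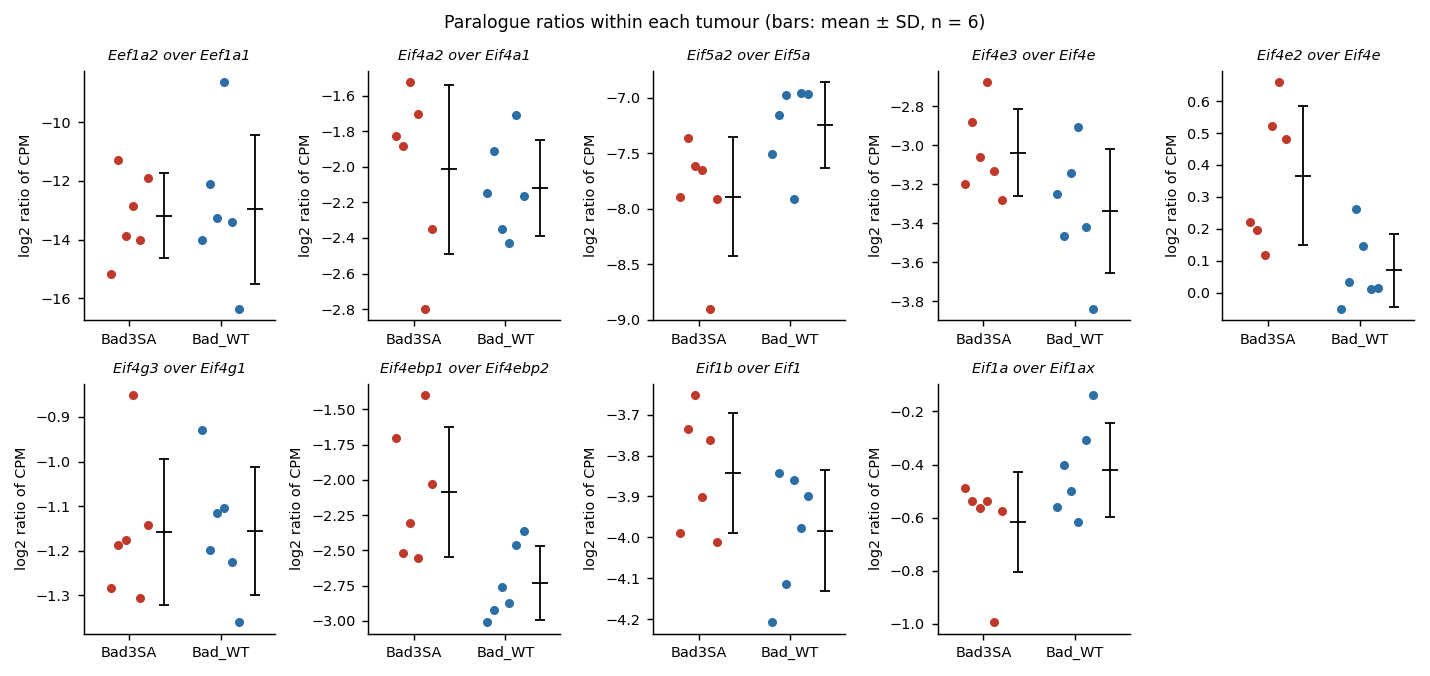
Log2 ratio of CPM between paralogous translation factor genes in each tumour, 1 panel per pair, with Bad3SA left of Bad_WT and bars for mean ± SD over 6 tumours; vertical scales differ between panels. Eif4e2 over Eif4e and Eif4ebp1 over Eif4ebp2 lie higher and Eif5a2 over Eif5a lower in most Bad3SA tumours, and the groups overlap in each panel.

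Single tumours set many extremes. Bad3SA 5 was the highest of the 12 tumours in 22 of the 63 factor genes, and Bad_WT 6 in 15. Bad3SA 4 and Bad_WT 2 were each the lowest in 16. Shorter transcripts tended to have higher fold changes: across the 63 factor genes the Spearman correlation of log2 fold change with exon length was -0.37, and over 17981 genes of the whole table it was -0.32. Without Bad3SA 5 the values were -0.34 for the factor genes and -0.22 for all genes. Genes within a sample are not independent, so these correlations are descriptions. Over the 63 factor genes, the deviation of a tumour from the mean of 12 tracked exon length most in Bad3SA 6 (-0.47). With opposite sign it did so in Bad_WT 6 (0.43) and Bad_WT 5 (0.42). The sign did not follow the genotype in all tumours, with -0.34 in Bad_WT 3 and 0.28 in Bad3SA 3. Over the 17981 genes the deviation tracked exon length most in Bad3SA 5 (-0.41), with -0.23 in Bad3SA 6, 0.18 in Bad_WT 6 and 0.27 in Bad_WT 5. Whether RNA quality or library preparation has a part in this relation was not tested.

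**Figure D5:**
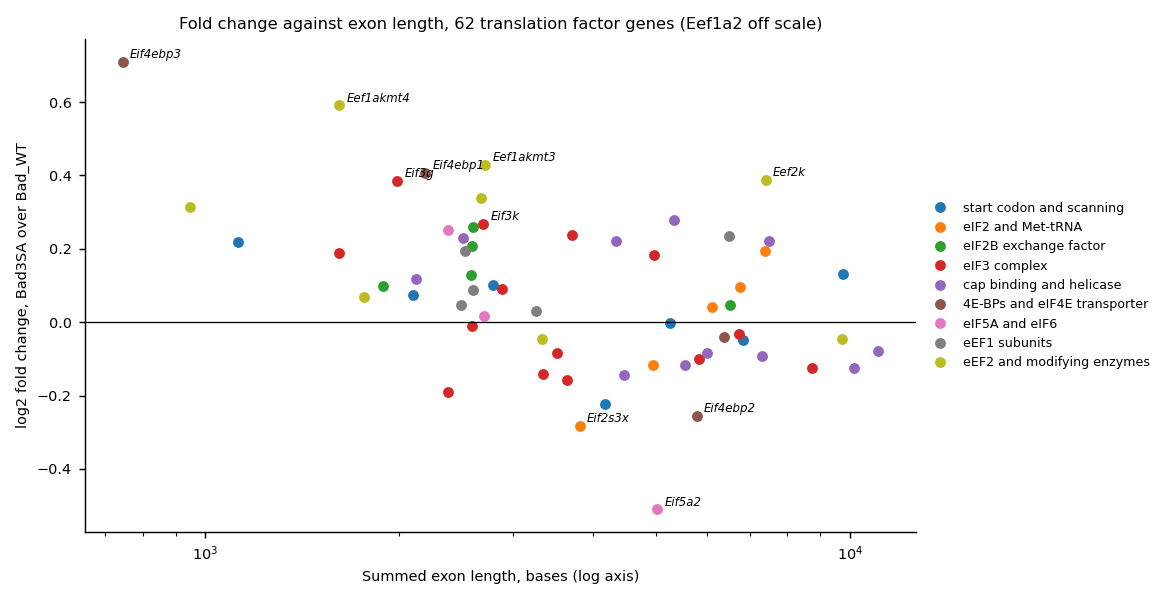
Log2 fold change of Bad3SA over Bad_WT against summed exon length (log axis) for 62 translation factor genes, coloured by role; Eef1a2 lies off the scale. Genes with shorter exons, such as Eef1akmt4, Eif3g and Eif4ebp1, lie mostly above 0 and longer ones around or below it, as in the correlation of -0.37 over 63 genes.

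Genes around the factors were read from companion lists in the same fit. In the list of mTORC1 and cap kinase genes, 2 of 20 fell and none rose, where 1.38% of all genes tested were called in either direction, with a median log2 fold change of -0.04. Deptor, an inhibitor subunit of mTOR complexes, spanned 70.4 to 127 CPM with a median of 96.0 CPM in Bad3SA tumours, against 174 to 662 CPM with a median of 290 CPM in Bad_WT tumours. The groups did not overlap, and the log2 fold change was -1.71 (SE 0.29, adjusted p = 0.00889 by edgeR). The call held when any 1 tumour was left out, and was lost once end-point age was a covariate (log2 fold change -1.87, SE 0.39, adjusted p = 0.0722 by edgeR) and without Bad3SA 4, 5 and 6 (-1.98, SE 0.41, adjusted p = 0.0689 by edgeR). The fold was larger in both of these fits, and so was its SE.

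Pdcd4, which blocks the helicase eIF4A and is degraded after S6 kinase signalling, spanned 78.4 to 90.8 CPM with a median of 85.5 CPM in Bad3SA tumours. In Bad_WT tumours it spanned 90.6 to 137 CPM with a median of 129 CPM, so the groups touched only at Bad3SA 1 and Bad_WT 3. The log2 fold change was -0.51 (SE 0.11, adjusted p = 0.0380 by edgeR). The Pdcd4 call was lost in 10 of 12 fits that left out 1 tumour, with adjusted p up to 0.0963 by edgeR and log2 fold changes of -0.59 to -0.45 over the 12. It was also lost once end-point age was a covariate (log2 fold change -0.46, SE 0.14, adjusted p = 0.277 by edgeR) and without Bad3SA 4, 5 and 6 (-0.46, SE 0.14, adjusted p = 0.182 by edgeR).

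Cytosolic ribosomal protein genes share with several factors a translationally controlled leader. Of the 34 listed, 33 were positive, with a median of 0.25, and none rose past the threshold. Their mean log2 level was 9.86 to 10.62 in Bad3SA tumours, highest in Bad3SA 5, and 9.75 to 10.23 in Bad_WT tumours, where Bad_WT 6 was the highest. Bad3SA 2, 3 and 4, at 9.90, 9.86 and 9.98, lay within the Bad_WT range. The exception was Rpl30, with 60.2 CPM in Bad3SA tumours against 127 CPM in Bad_WT tumours (log2 fold change -1.07, SE 0.14, adjusted p = 0.00116 by edgeR). It was the 1 gene of 34 called, where 1.38% of all genes tested were called. In both groups Rpl30 lay far below the mean level of the list, and how completely its reads were counted was not tested. The 10 factor genes known for such a leader, among them Eef1a1, Eef2 and Eif4b, had a median of 0.07 with 6 positive and 4 negative.

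No gene passed the threshold in the other companion lists. The eIF2alpha kinase and phosphatase genes had 1 positive and 6 negative fold changes, with a median of -0.14. Eif2ak1 was at -0.22 (SE 0.10, adjusted p = 0.303 by edgeR) and the general control kinase Eif2ak4 at -0.24 (SE 0.13). Targets of ATF4, the transcription factor translated when eIF2 is phosphorylated, had 14 positive and 5 negative fold changes and a median of 0.10. The serine synthesis genes Psph and Psat1 were at 0.41 (SE 0.18, adjusted p = 0.300 by edgeR) and 0.43 (SE 0.20, adjusted p = 0.305 by edgeR). Release, recycling and reinitiation factors had a median of -0.07 over 12 genes, mitochondrial translation factors 0.03 over 10, tRNA synthetases 0.06 over 22 and other mRNAs with the same leader as ribosomal proteins -0.08 over 7.

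The authors' deposited table held an adjusted p for 63 factor genes, and none passed 0.05 there, in a table in which 4.02% of 23711 genes passed. The smallest value was 0.176 for Eef1akmt4. These 63 differ from the 63 tested above in that they lack Eef1a2 and hold Eif4a3l2. Its fold changes run as Bad_WT over Bad3SA, as their Spearman correlation of -0.997 with the fold changes given here over 18019 genes shows.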

How the data were processed

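PolyA RNA of 12 tumours was sequenced as paired reads, per the labels. The table of raw gene counts is as deposited, and the submitters' processing notes list fastp (0.23.1) and STAR (2.7.9a) among the tools, with DESeq2 and the build GRCm38. How reads were assigned to genes, including strand, is not stated in any source used, so shared reads of overlapping genes cannot be separated. Per the file headers, the authors' own DESeq2 table lists p-values, a log2 fold change with its error, a Wald score and a signal (mean of normalised counts). Only its log2 fold change and adjusted p-value columns, as deposited, entered.

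Counts were filtered with filterByExpr of edgeR 4.0.16 and normalised with TMM, and a robust quasi-likelihood F test compared the genotypes over all 12 tumours, with Benjamini-Hochberg adjustment over 18019 genes. SE is the log2 fold change over the square root of F. Paralogue ratios used a pseudocount of 0.1 CPM. Exon lengths came from GENCODE M21 on GRCm38, in which 346 gene identifiers have no entry. Copies were searched with BLAST+ 2.17.0 at 97% identity over 200 bases. R 4.3.3, limma 3.58.1, DESeq2 1.42.0 and scipy 1.17.1 were used, and the fit was tested on simulated counts.

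The members, lists, pairs, tests and alternatives were chosen with earlier results of these data known. Genes named are, per role, those of highest and lowest fold change, smallest p and highest level per length, the paralogue pairs, genes removed by the filter, and in each companion list those past the threshold. Where no listed gene passed, the 2 of smallest p are given only for the eIF2alpha kinase and ATF4 lists. Other members are named to complete a complex. Alternatives were another scaling, filter, tool or pseudocount, end-point age, a replicate block, and leaving out tumours.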

Additional observations from a re-analysis of the deposited data

Results flagged for a closer look

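In 84 groups of 6 tumours (values of named factor genes, companion genes and ratios), 10 had 1 tumour far from the other 5 by Dixon's test for an outlying value. The genes were partly chosen by fold change or p in these data, and the groups share tumours and genes. The count of 10 therefore cannot be set against a chance rate. Bad3SA 5 was the distant tumour in 5 of the 10. It had 42.8 CPM of Eif1b against 28.4 to 33.8 CPM in the other Bad3SA tumours, 120 CPM of Eif2b2 against 70.4 to 87.6 CPM, and 355 CPM of Eif3g against 185 to 241 CPM. Its log2 ratio of Eif5a2 over Eif5a was -8.90 against -7.91 to -7.36 in the other Bad3SA tumours, and that of Eif1a over Eif1ax was -0.99 against -0.57 to -0.49. Bad3SA 4 had a log2 ratio of Eif4g3 over Eif4g1 of -0.85 against -1.31 to -1.14 in the other Bad3SA tumours. Bad_WT 6 had 97.9 CPM of Eif2d against 66.0 to 75.4 CPM in the other Bad_WT tumours, and 205 CPM of Eif2s1 against 124 to 152 CPM. Bad_WT 4 had 23.8 CPM of Eef1a2 against 0.0163 to 1.69 CPM in the other Bad_WT tumours. Bad_WT 1 had 662 CPM of Deptor against 174 to 332 CPM.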

How the results depend on the processing

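No translation factor gene passed the threshold under any alternative run. Counts of all genes called, 249 as reported, were 998 with DESeq2, 579 with limma voom, 163 with at least 1 CPM in 6 tumours, 73 with end-point age, 105 with the replicate block, 151 without Bad3SA 4, 5 and 6, and 147 to 315 when 1 tumour was left out. Same-number tumours did not deviate together: their correlations were -0.28 to 0.29, 1 of 6 was over 0.1, and 1 of 6 Bad3SA tumours was closest to its own number. Under the replicate block Deptor (log2 fold change -1.59, adjusted p = 0.103 by edgeR) and Pdcd4 (-0.49, adjusted p = 0.138) did not pass and Eif1ax turned to 0.00078.

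Signs of small log2 fold changes turned as follows, and the cause was not tested. Eif1ax was 0.0022 with DESeq2 size factors and 0.022 with at least 1 CPM. With limma voom Eef2 was 0.0055, Eif1ax 0.025, Eif2b2 -0.023, Eif4e 0.019 and Eif4g1 0.0073. With end-point age Eef2 was 0.16, Eif1a 0.0061, Eif1ax 0.055, Eif2s1 0.053, Eif2s3x 0.021, Eif4b 0.037, Eif4e 0.037, Eif4g1 0.0095 and Eif4g3 0.036, and 54 of 63 factor genes were positive. Without Bad3SA 4, 5 and 6 Eef2 was 0.11, Eif1ax 0.051, Eif2b2 -0.022, Eif2b3 -0.033, Eif2s3x 0.056, Eif4a1 -0.050, Eif4b 0.049, Eif4e 0.040 and Eif5a -0.074. Leaving out 1 tumour gave -0.085 to 0.12 for Eef1a1, -2.43 to 0.88 for Eef1a2, -0.15 to 0.044 for Eef2, -0.061 to 0.068 for Eif1ax, -0.022 to 0.16 for Eif2b2, -0.060 to 0.12 for Eif2b3, -0.19 to 0.0030 for Eif2s1, -0.15 to 0.017 for Eif4e and -0.16 to 0.0072 for Eif4g3. The ratio differences were -0.90 to 0.65 for Eef1a2 over Eef1a1 and -0.063 to 0.043 for Eif4g3 over Eif4g1. Among the factor genes, Eif4ebp3 and the 4 genes removed by the filter had the fewest counts. Whether depth or shared exon bases set the low count of Eif4ebp3 was not tested.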
